A study of Mus musculus with 2 samples.

Results

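Accessible chromatin was read under 2500 DNA barcodes in 1 library of mouse embryonic brain tissue, and 507 of those barcodes had no column in the count matrix that accompanies them. The 507, called absent barcodes here, were found by name: they occur in the list of sequenced chromatin fragments and not in the list of the 1993 matrix barcodes, all of which have fragments too. The tissue was taken at E18.5, late in gestation, the strain background was C57BL/6, and the genotype was homozygous for a Ctcf mutation, given as CTCF-R567W and made by CRISPR/Cas9 editing. Every barcode carried that genotype, so no barcode is a wild-type control. There was 1 chromatin library and 1 RNA library, and the sources used here do not say how many cells lie under a barcode or whether tissue of several embryos was pooled. Absent and matrix barcodes therefore came from the same library, barcodes are not replicates, no test between conditions was possible, and no p-value is given. The 95% intervals below cover counting error only. They are too narrow where fragments with the same start and end under different barcodes are not separate observations, and the origin of such copies was not tested. The 2 absent barcodes with over 120000 fragments are described apart, which left 505 absent barcodes for the main comparison.

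In an ATAC assay (assay for transposase-accessible chromatin), the Tn5 transposase cuts and tags DNA where it can reach it, and the pieces between cuts are sequenced as fragments. Open promoters and enhancers collect many short fragments, while fragments that span a nucleosome, the unit of histones that DNA wraps around, are longer. A library of good contrast has many fragments in peaks (regions where fragments pile up) and many cuts near transcription start sites (TSSs), whereas DNA cut without regard to chromatin gives a low share in both. CTCF, the protein mutated here, binds DNA at insulators and anchors chromatin loops.

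Each barcode was 16 bases long and made of a first and a second segment of 8 bases, and the same 50 segment sequences occurred at both positions, so that all 2500 combinations were present. The segments with the most absent barcodes are printed because the absent barcodes were spread unevenly over them. First segments:
first segment 1: GGCTGAGC
first segment 2: CGAACGCC
first segment 3: ATAAGGAG
Second segments:
second segment 1: AACCTGCG
second segment 2: TCCGGCCT
second segment 3: ATAAGGAG
The 2 barcodes with over 120000 fragments are printed whole, with the second segment in capitals:
highest barcode 1: ccgattccCAACCGCT
highest barcode 2: cttgcgccACTTAACC

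Absent barcodes were shallow and lay mostly under a few second segments. The 505 absent barcodes held 5521971 fragments, 10.4% of the 52942843 in the library, with a median of 5118 fragments a barcode, quartiles of 3226 and 12487, and a range from 45 to 105517. The 1993 matrix barcodes held 47109447 fragments, with a median of 21705 and a range from 5759 to 115587. Of all 507 absent barcodes, 286 had fewer fragments than any matrix barcode, the deepest of them 5744, and 221 reached the lowest matrix depth of 5759. The 2 groups of barcodes thus overlapped in depth over most of the matrix range.

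The second segments AACCTGCG and TCCGGCCT had all 50 of their barcodes absent, and ATAAGGAG had 48 of 50 absent. These 3 second segments, picked as those with the most, held 148 of the 507 absent barcodes, or 29.2%. This is a full count of the grid, so no interval is given. A group of 9 second segments, written below as the 9 absent-rich second segments, had at least 25 absent barcodes each and held 341, while 10 second segments had none. First segments were more even: the number absent ran from 4 to 33 with a median of 9. The 3 first segments with most, GGCTGAGC with 33, CGAACGCC with 27 and ATAAGGAG with 21, held 15.98%. Outside the 9 absent-rich second segments the first segment counted for more, since 64 of the 166 absent barcodes there carried GGCTGAGC, CGAACGCC, ATAAGGAG or CCGATTCC, and 11 first segments had none. A map from segment to place in the tissue was not used here, so these are positions on the barcode grid, not in the brain.

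**Figure D1:**
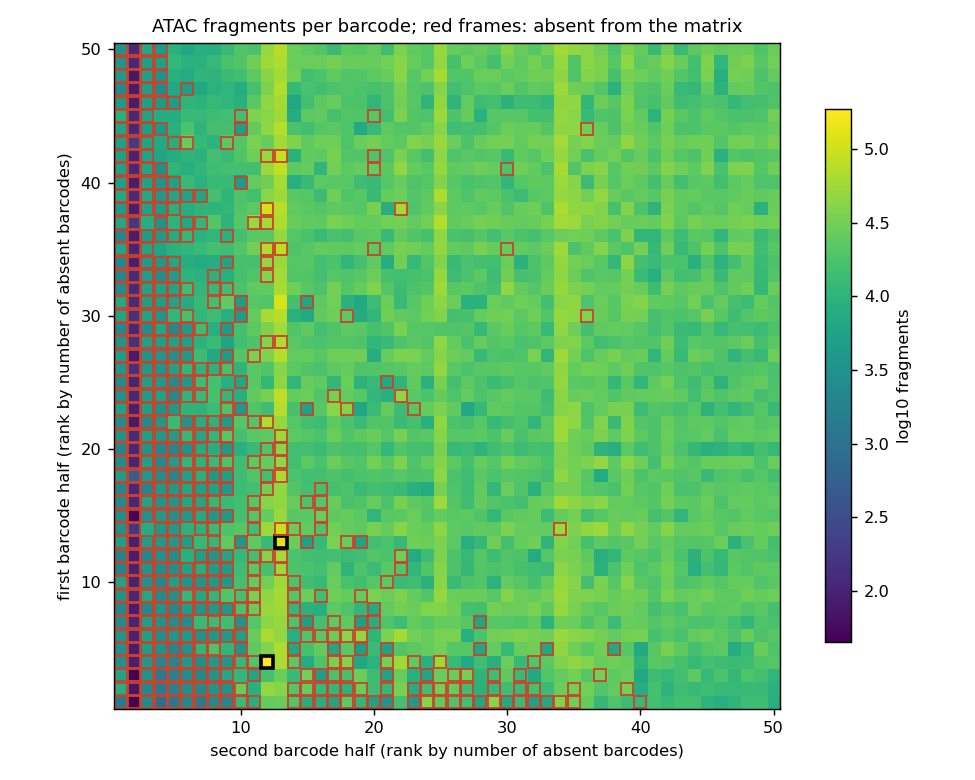
Fragments per barcode on a log10 colour scale, with the second segment across and the first segment up, both ranked by their number of absent barcodes. Red frames mark the 505 absent barcodes and black frames the 2 with over 120000 fragments. Absent barcodes fill columns at the left, where 9 second segments hold 341, and rows at the bottom.

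Absent barcodes differed in depth among themselves by second segment. Under TCCGGCCT the 50 barcodes held only 5750 fragments together, with a median of 107, the lowest 45 and the highest 562. Under AACCTGCG, where every barcode was also absent, the median was 3401 and the range 1388 to 8905. Under ATAAGGAG the 48 absent barcodes had a median of 4965, against 7960 in its 2 matrix barcodes. The 164 absent barcodes outside the 9 absent-rich second segments were deep, with a median of 19737 fragments beside 22249 in the 1884 matrix barcodes there. Under ACTTAACC the 10 absent barcodes without the highest one ran from 41855 to 97115 with a median of 62523, and the 39 matrix barcodes of that segment had a median of 58680. In 9 of the 38 second segments that held both kinds, the absent median exceeded the matrix median. The RNA of the matrix barcodes was also lower in the absent-rich second segments, with a median of 2963 RNA molecules a barcode there and 4228 elsewhere. The label names brain alone, but the matrix barcodes of every second segment that had any held RNA of the 12 muscle genes, from 3196 to 17657 molecules per 1000000, beside 3701 to 6702 for the 12 neuron genes.

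The share of fragments in peaks was lower in absent barcodes, and this was most marked in the deep ones. Pooled over barcodes, 13.2% of absent fragments overlapped one of the 91223 peaks in the feature list, against 19.0% of matrix fragments. The barcode medians were 15.2%, with quartiles of 13.3% and 17.4%, and 18.7%, with quartiles of 17.8% and 19.7%. The criterion that put a barcode in the matrix is not given in the sources used here. No matrix barcode had a share below 14.3%, while 179 of the 221 absent barcodes at or above the lowest matrix depth did. Only 41 absent barcodes lay inside the matrix range of both depth and peak share, with 5816 to 8408 fragments each and 21 of them in the 9 absent-rich second segments. These 41 had 17.0% of fragments in peaks and a median of 6378 fragments, and 124 matrix barcodes also had fewer than 10000. Depth and peak share therefore nearly separated the 2 kinds of barcode and are given as a description of them, since either may have been used in the choice.

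**Figure D2:**
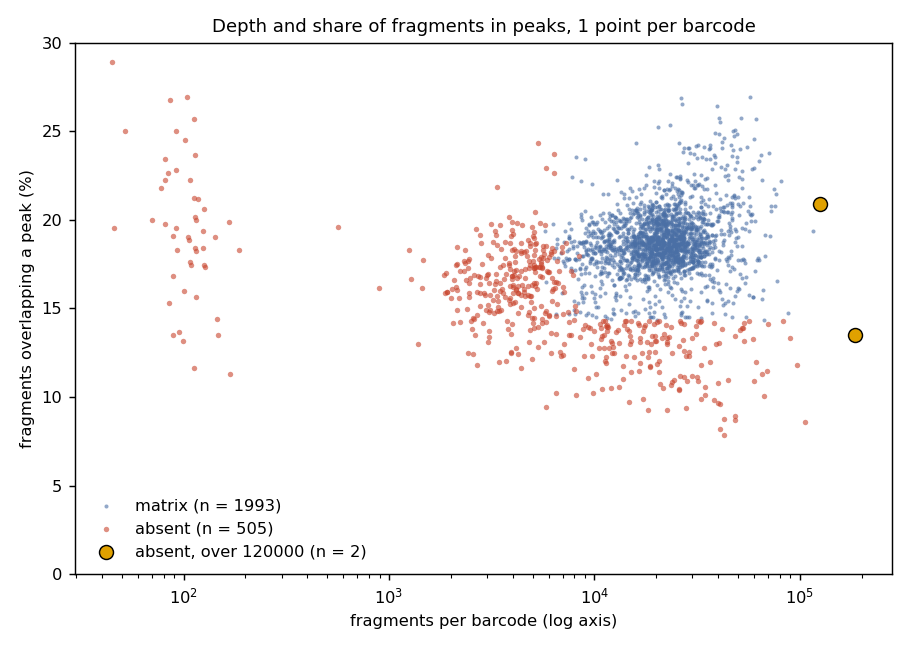
Fragments per barcode on a log axis against the percent of its fragments that overlap a peak, 1 point a barcode. Blue points are the 1993 matrix barcodes, red points the 505 absent ones and large yellow points the 2 over 120000 fragments. Absent points lie to the left of 5759 fragments or mostly below 14.3% in peaks.

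Among absent barcodes the peak share was lower in the classes of 20000 fragments and over than in the shallow ones, while among matrix barcodes it rose slightly with depth. It was 16.6% (16.5 to 16.6) in the 235 absent barcodes with 1000 up to 5759 fragments. It was 15.1% (15.02 to 15.2) in the 67 absent barcodes with 5759 up to 10000 fragments, beside 18.1% in the 124 matrix barcodes of that depth. In the class from 20000 up to 50000 fragments it was 11.7% (11.7 to 11.8) in 66 absent barcodes and 19.1% in 1113 matrix barcodes. From 50000 up to 120000 it was 12.4% (12.3 to 12.5) in 17 absent barcodes, above the class before it, and 19.8% in 67 matrix barcodes. The depth limits are descriptive, and no more than the pooled fragments of each class stands behind these values.

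Enrichment of cuts at start sites followed the peak share. The enrichment, the number of transposase cuts per base within 50 bp of a TSS over that at 1900 to 2000 bp, was 6.31 (6.24 to 6.38) in absent and 9.84 (9.81 to 9.88) in matrix barcodes. In the 9 absent-rich second segments it was 7.40 (7.25 to 7.56) in absent and 9.27 (9.06 to 9.48) in matrix barcodes. In the other second segments it was 5.85 (5.76 to 5.93) and 9.86 (9.82 to 9.90). The contrast was lower in absent barcodes in all 38 second segments with both kinds for the peak share and in 37 of 38 for the enrichment. If the peak share was used to choose the matrix barcodes, this agreement over segments may follow from the choice, which was not tested. The enrichment is a measure of the same contrast and is therefore given as a description, not as a finding apart from the peak share. The near-empty TCCGGCCT had 19.1% of its 5750 fragments in peaks and an enrichment of 10.5 (7.58 to 14.8), close to the pooled matrix values. The absent barcodes of AGAACGTC, ATAAGGAG, CTTGCGCC and GAAGATCG, with enrichments of 8.51, 8.79, 8.98 and 9.10, lay inside that interval.

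Fragments were shorter in absent barcodes, and the class that spans 1 nucleosome was smaller. The median length was 138 bp in absent and 155 bp in matrix barcodes. Fragments under 150 bp made up 53.5% of absent and 48.1% of matrix fragments, and those of 150 to 299 bp made up 37.0% and 41.6%. Fragments of 300 bp and over differed less, at 9.51% and 10.3%. The nucleosome peak of the length curve stood in the same 5-bp bin, from 190 bp, in both, at 1.98% of absent and 2.52% of matrix fragments. The barcode quartiles for the share under 150 bp were 50.3% and 54.8% in absent and 44.0% and 49.7% in matrix barcodes, so that these middle ranges did not overlap.

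**Figure D3:**
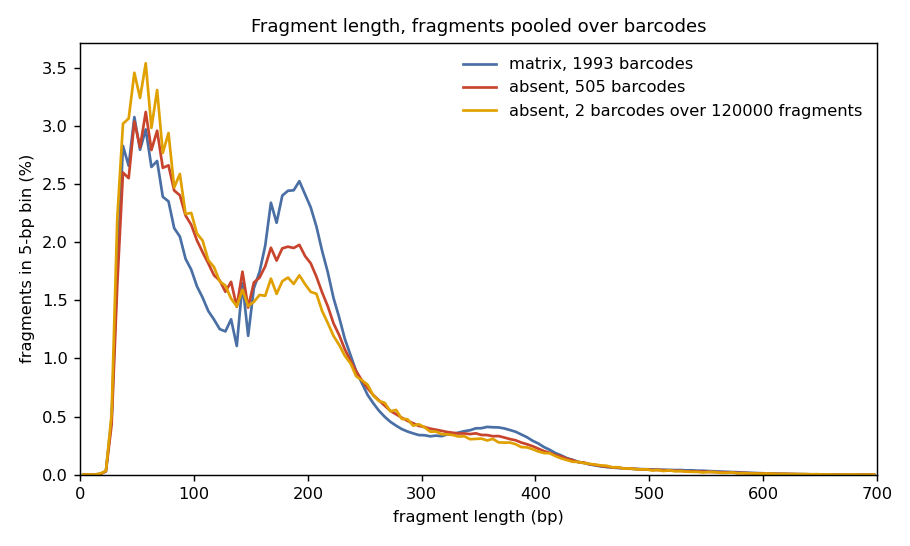
Fragment length against the percent of fragments in each 5-bp bin, pooled over the 1993 matrix barcodes (blue), the 505 absent barcodes (red) and the 2 barcodes over 120000 fragments (yellow). Near 190 bp the matrix curve is the highest and the curve of those 2 the lowest.

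The direction of the length difference turned in second segments rich in muscle RNA. All 50 first segments and 31 of 38 second segments had a larger share under 150 bp in absent than in matrix barcodes. Of the 7 others, 6 were the 6 second segments whose matrix barcodes held over 10000 molecules of the 12 muscle genes per 1000000 RNA molecules, a grouping made after the values were seen. In those 6, 53.6% (53.5 to 53.7) of the fragments of 19 absent barcodes and 54.9% (54.9 to 55.0) of the fragments of 280 matrix barcodes were under 150 bp. In the 36 second segments with none of the RNA marks used here the shares were 52.7% and 45.3%. The pooled 53.6% rested mostly on ACTTAACC, at 55.4%, while the absent barcodes of the other 5 muscle-rich segments had from 46.9% to 51.01% under 150 bp. In the 3 second segments rich in pituitary RNA the shares were 56.6% in absent and 51.5% in matrix barcodes.

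At promoters of cell type genes, absent barcodes held a smaller share of neuron fragments and a larger share of muscle and fibroblast fragments when counted as a share of promoter fragments, and no list was higher when counted as a share of all fragments. Promoter fragments, those overlapping 1 kb on either side of a TSS, were 7.37% of absent and 11.1% of matrix fragments. This lower promoter share sets the gap between the scales. Fewer cells of a type under a barcode, less open promoters in each cell and a larger share of cuts outside peaks cannot be told apart here. Each of the 5 main lists had 12 genes, and the fragments behind them were few, from 83 to 188 a list in all absent barcodes together.

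The neuron list had 188 fragments in absent and 2921 in matrix barcodes. Its ratio of absent to matrix was 0.824 (0.707 to 0.955) as a share of promoter fragments, called the promoter scale below, and 0.549 (0.471 to 0.637) as a share of all fragments. With equal weight for each barcode, which lets the shallow ones count most, it turned to 1.13 on the promoter scale, but 29.1% of that mean came from 1 neuron fragment in a barcode of TCCGGCCT with 10 promoter fragments, and without that barcode the ratio was 0.8003. Tubb3, a tubulin of neurons, had 31 and 468 fragments and a ratio of 0.848 (0.569 to 1.22) on the promoter scale. Syt1, the calcium sensor of synaptic vesicles, had 20 and 464 and the low ratio of 0.552 (0.334 to 0.862). Stmn2, a regulator of microtubules in axons, had 18 and 307 and a ratio of 0.750 (0.439 to 1.21). Nefl, the light neurofilament, had 22 and 275 and a ratio of 1.02 (0.631 to 1.58). Of these 4, the interval of Syt1 alone excluded 1. Snap25, outside the 4, had 11 and 279 fragments and a ratio of 0.505 (0.249 to 0.917). Of the 12 neuron genes, 7 were below 1 and 5 above on the promoter scale, so the low list ratio was not shared by all of them. The share of all promoters on each side of 1 is not given here.

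The muscle list had 117 and 1073 fragments, with a ratio of 1.40 (1.14 to 1.69) on the promoter scale and 0.930 (0.762 to 1.13) as a share of all fragments, so its direction depends on the scale. With equal weight for each barcode it was 1.04 on the promoter scale, and 0.992 without the barcode that counted most. Of its 12 genes, 10 were above 1 on the first scale and 5 on the second. All genes with promoters about as open in matrix barcodes also stood above 1 on the promoter scale, from 1.13 to 1.79 as given below. The count of 10 is therefore not read as a result about muscle genes. Tnnt3 and Acta1, a troponin and the actin of skeletal muscle fibres, had 15 and 11 absent fragments and ratios of 1.32 (0.722 to 2.26) and 0.991 (0.484 to 1.83) on the promoter scale. Myod1 and Myog, transcription factors of the muscle lineage, had 14 and 12 and ratios of 1.63 (0.862 to 2.85) and 1.44 (0.719 to 2.61). The interval of each of these 4 genes included 1.

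The fibroblast list also turned with the scale, at 1.28 (1.08 to 1.49) on the promoter scale and 0.850 (0.721 to 0.997) as a share of all fragments, from 168 absent fragments. Col1a1 and Col6a3, collagen chains, had 23 and 21 absent fragments and ratios of 1.25 (0.775 to 1.92) and 1.26 (0.765 to 1.98) on the promoter scale. Twist1 and Twist2, transcription factors of mesenchyme, had ratios of 0.781 (0.440 to 1.29) and 1.41 (0.844 to 2.25). The epithelial list, at 0.987 (0.780 to 1.23), and the glial list, at 0.958 (0.795 to 1.15), included 1 on the promoter scale and stood at 0.658 (0.520 to 0.823) and 0.639 (0.530 to 0.764) as a share of all fragments. Cdh1, the adhesion protein of epithelia, had 8 absent fragments and a promoter ratio of 0.731 (0.310 to 1.48), and Cldn4, a tight junction protein, had 9 and 1.07 (0.475 to 2.10). Wfdc2 and Grhl2, a secreted protein and a transcription factor of epithelia, had 9 each and 0.960 (0.428 to 1.88). Sox9 and Fabp7, genes of radial glia and astrocytes, had 34 and 11 and promoter ratios of 1.12 (0.765 to 1.59) and 0.782 (0.383 to 1.43). Olig1, a factor of the oligodendrocyte lineage, had 9 and 0.591 (0.266 to 1.14), and Aldh1l1, an astrocyte enzyme, had 14 and 1.18 (0.629 to 2.04).

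Lists of other cell types stood near the muscle and fibroblast lists. On the promoter scale the endothelial, macrophage, erythroid, cartilage and bone, and pituitary lists, of 10 genes each, stood between 1.27 and 1.41 with intervals above 1. The erythroid and pituitary intervals included 1 against the 25% of matrix barcodes with fewest fragments, at 0.806 to 1.65 and 0.863 to 1.77. With equal weight for each barcode the 5 lists spread from 0.839 for endothelial to 3.32 for macrophage, where 1 fragment in a barcode with 7 promoter fragments made up 66.3% of the mean, and the macrophage ratio was 1.12 without that barcode. Without the barcode that counted most, the erythroid and pituitary ratios were 0.944 and 0.988. As a share of all fragments they stood between 0.844 and 0.937 with intervals that included 1. The housekeeping list was low on both, at 0.806 (0.726 to 0.892) and 0.537 (0.484 to 0.595). Cldn5, a tight junction protein of vessels, had a promoter ratio of 0.953 (0.511 to 1.64), and C1qc, a complement gene of macrophages, 1.75 (0.990 to 2.92). Col11a1, a cartilage collagen, had 1.17 (0.759 to 1.74), and Eef1a1, a translation factor, 0.702 (0.526 to 0.919). Over all 122 genes of the 11 lists, 10 had an interval above 1 and 4 below 1 on the promoter scale, and 3 above and 24 below 1 as a share of all fragments. The share of all promoters under that interval rule is not given here, so these counts are not read as a result. Of the 122, 11 had at least 25 expected absent fragments, and of these 0 were past 1.5-fold higher and 1, Syt1, was past 1.5-fold lower. Among all promoters with that many, 0.214% were past 1.5-fold higher and 10.5% past 1.5-fold lower. The 11 were 8 housekeeping genes, 2 neuron genes and 1 glial gene. No gene of the muscle, fibroblast, epithelial or other lists had enough fragments, so these lists could not be compared with that background.

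**Figure D4:**
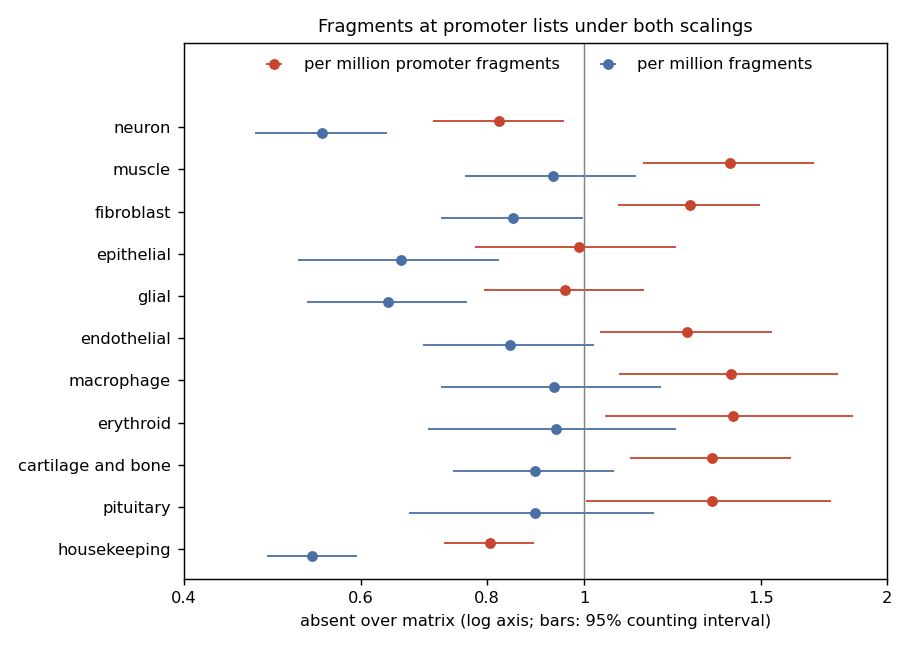
Ratio of absent to matrix barcodes for each promoter list on a log axis, with 95% counting intervals as bars, as a share of promoter fragments (red) and as a share of all fragments (blue). Muscle and fibroblast lie above 1 in red and below 1 in blue, and neuron and housekeeping lie below 1 in both.

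The ratio at a promoter moved with how open that promoter was in matrix barcodes. Genes were ranked on every other matrix barcode and compared with the matrix barcodes not used for ranking, with about 3223 genes in each decile. On the promoter scale the ratio was 1.98 (1.91 to 2.05) in the decile with the fewest fragments, 1.31 (1.29 to 1.33) in decile 5 and 0.874 (0.869 to 0.878) in the decile with the most. As a share of all fragments these values were 1.32 (1.27 to 1.36), 0.874 (0.863 to 0.886) and 0.582 (0.579 to 0.585). The slope compares groups that peak share may have been used to choose, so it is not read as a finding apart from the peak share. The muscle genes lay in deciles 2 to 6 and the neuron genes in deciles 5 to 10, and 7 of the 12 housekeeping genes lay in decile 10. The muscle ratio of 1.40 lies inside the range that all genes of its deciles cover, from 1.79 to 1.13. Only 1 muscle gene lay in decile 2, and 6 lay in decile 6, at the low end. The neuron ratio of 0.824 lies below the range of its deciles, from 1.31 to 0.874, but its interval reaches into it. Only 1 neuron gene lay in decile 5 and 1 in decile 10, while 5 lay in decile 7, at 1.005, and 3 in decile 8, at 0.929. No ratio weighted by decile was computed, so whether either list departs from its deciles was not tested.

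**Figure D5:**
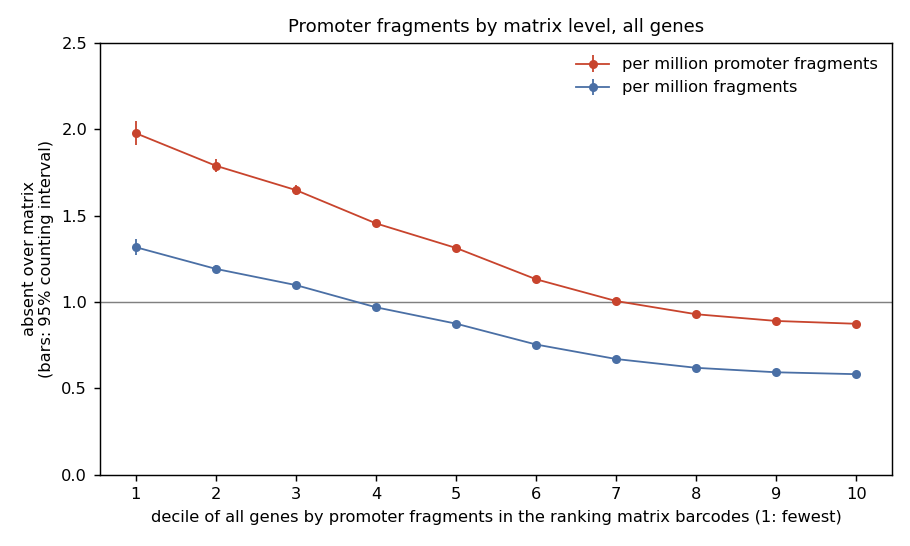
Ratio of absent to matrix barcodes over all genes, by decile of promoter fragments in the matrix barcodes used for ranking, as a share of promoter fragments (red) and as a share of all fragments (blue), with 95% counting intervals. Both curves fall from left to right, the red from 1.98 to 0.874 and the blue from 1.32 to 0.582.

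The list ratios were also set against matrix barcodes of the same position on the grid. When the number expected in the 405 absent barcodes outside AACCTGCG and TCCGGCCT was taken from the matrix barcodes of the same second segment, per promoter fragment, the muscle list had 115 fragments observed and 71.8 expected, a ratio of 1.60 (1.32 to 1.92). The fibroblast list, at 155 observed and 177 expected, stood at 0.878 (0.745 to 1.03). These intervals take the expected number as exact, and for 94 of the 405 it came from very few matrix barcodes, 2 under ATAAGGAG and 4 under GAAGATCG. The 5 fibroblast fragments in the 2 matrix barcodes of ATAAGGAG gave 53.7 of the 177 expected, where 12 were observed, and neither segment had a muscle fragment in its matrix barcodes, where 10 and 4 were observed in its absent ones. In the 311 absent barcodes of second segments with at least 10 matrix barcodes, the muscle ratio was 1.41 (1.15 to 1.71) and the fibroblast ratio 1.13 (0.951 to 1.34). The neuron ratio was 0.863 (0.741 to 0.999) in the 405 and 0.825 (0.701 to 0.964) in the 311. The epithelial ratio was 1.26 (1.003 to 1.57) in the 405, against 0.987 unstandardised, and 1.17 (0.920 to 1.47) in the 311, and the glial ratio was 0.874 (0.728 to 1.04) and 0.874 (0.713 to 1.06). By first segment the muscle ratio was 1.47 (1.21 to 1.76), the fibroblast ratio 1.30 (1.11 to 1.51), the neuron ratio 0.803 (0.692 to 0.926), the epithelial ratio 1.03 (0.823 to 1.28) and the glial ratio 0.983 (0.821 to 1.17). The muscle and neuron lists thus kept their sides of 1 in each of these, while the fibroblast list did not. In the 405 by second segment, the erythroid list stood as high as muscle, at 1.60 (1.20 to 2.08). The endothelial, macrophage, cartilage and bone, and pituitary lists stood between 1.21 and 1.39 with intervals above 1. A standardised ratio above 1 was therefore not particular to muscle. The housekeeping list stood at 0.776 (0.700 to 0.858).

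In the absent barcodes of second segments rich in muscle RNA, the muscle list was one of several that stood higher than in other absent barcodes. The 19 absent barcodes of the 6 second segments rich in muscle RNA had 425 (291 to 600) muscle fragments per 1000000 promoter fragments, 1.66 (1.07 to 2.52) times the other absent barcodes, and 287 per 1000000 in the 280 matrix barcodes of those segments. The cartilage and bone list stood a little lower, at 1.55 (1.01 to 2.31) times the other absent barcodes. The epithelial list, at 1.59 (0.930 to 2.63), and the endothelial list, at 1.56 (0.991 to 2.39), had intervals that included 1. All of these intervals overlap that of muscle, so a rise particular to muscle was not shown. The neuron level of the 19 absent barcodes was 346 (226 to 506) per 1000000, 0.708 (0.449 to 1.08) of the other absent barcodes. In the 36 second segments with no RNA mark, the 249 absent barcodes had 558 (462 to 669) neuron and 253 (189 to 331) muscle fragments per 1000000. Their fibroblast level was 405 (324 to 501) per 1000000 beside 228 in the 1551 matrix barcodes there, a ratio of 1.77 (1.40 to 2.22). In the other groups of segments the fibroblast ratio of absent to matrix barcodes lay below 1 with intervals that included it, at 0.765 (0.516 to 1.10) in the muscle-rich, 0.598 (0.303 to 1.07) in the pituitary-rich and 0.644 (0.353 to 1.19) in the fibroblast-rich segments. The 119 absent barcodes of the 3 further second segments with over 5000 fibroblast molecules per 1000000 had 485 (320 to 706) fibroblast fragments per 1000000, 1.21 (0.770 to 1.84) times the other absent barcodes. Among these segments, ATAAGGAG was placed by the RNA of only 2 matrix barcodes, and it held 12 of the 27 absent fibroblast fragments. In the 3 second segments with over 1000 pituitary molecules per 1000000, the 10 pituitary fragments of 18 absent barcodes gave 197 (94.6 to 363) per 1000000, 1.46 (0.661 to 2.93) times the others. In the same 18 barcodes the endothelial list stood at 2.05 (1.27 to 3.21) and the cartilage and bone list at 1.66 (1.03 to 2.58) times the other absent barcodes, both above the pituitary value. Within one second segment the 5 main lists rested on at most 22 fragments, so single segments were not ordered.

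Single promoters could be compared only where they held enough fragments, and 6088 of 32235 had at least 25 expected absent fragments. The expected number comes from the absent and matrix fragments of a promoter together, most of which are matrix fragments. The deciles above give ratios below 1 for the promoters most open in matrix barcodes and above 1 for most others, so the counts describe these 6088 and not all promoters. Like the deciles, the counts are not read as a finding apart from the lower peak share. Of the 6088, 13 (0.214%) were 1.5-fold or more higher in absent barcodes on the promoter scale and 641 (10.5%) were 1.5-fold or more lower, with a median ratio of 0.859. Against the 25% of matrix barcodes with fewest fragments the numbers were 79 and 761 of 5768. With the expected number taken from matrix fragments alone they were 12 and 669 of 6151. As a share of all fragments they were 5 and 7169 of 9699, with a median of 0.586. The lowest with at least 50 expected were Gabpa, a transcription factor, with 23 absent and 681 matrix fragments and a ratio of 0.432 (0.272 to 0.654), and Atp5j, a subunit of ATP synthase, with 25 and 700. Their start sites, at 84834925 and 84835625 on chromosome 16, have windows that overlap in part, so they are not separate observations. Cep350, a centrosome protein on chromosome 1, followed at 0.482 (0.321 to 0.698), and Mpv17l2, a mitochondrial membrane protein on chromosome 8, at 0.503 (0.334 to 0.728). The highest were Gm21738 on chromosome 14, at 3.07 (2.61 to 3.61), Gm10800 and Gm10801 on chromosome 2, at 2.86 (2.79 to 2.94) and 2.73 (2.60 to 2.87), and Gm12735 on chromosome 11, at 2.16 (1.84 to 2.54). These 4 are predicted gene models with no named function here. Gm10800 alone took 6743 of the 407127 absent promoter fragments. They stayed above 1 as a share of all fragments, from 1.44 (1.23 to 1.69) for Gm12735 to 2.05 (1.74 to 2.40) for Gm21738. A peak beside Gm21738 matched itself at 69.0% when shifted by 351 bases, so its reads may belong to other copies, as described below. Peaks at Gm10800 and Gm10801 had 36.6% and 34.6% GC, against a median of 61.5% in tested peaks. Whether Gm10800, Gm10801 and Gm12735 lie in repeats was not tested.

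The same limit left 4552 of 91223 peaks, those with most fragments, so the balance of higher and lower peaks was not read as a result. Of the 4552, 63 (1.38%) were 1.5-fold or more higher as a share of peak fragments and 935 (20.5%) lower, with a median of 0.791, and as a share of all fragments the numbers were 41 and 6051 of 7540. Of the 63 higher peaks, 8 reached the limit only through their absent fragments. With the expected number taken from matrix fragments alone, 55 peaks were higher and 985 lower of 4636, and of those 55, 7 lay within 1 kb of a TSS, 16 lay on an unplaced scaffold and the 39 on assembled chromosomes had a median GC content of 40.6%. Of the 63 higher peaks 7 lay within 1 kb of a TSS, or 11.1%, against 86.5% of all tested and 88.2% of the lower ones. Of the 63, 20 lay on that scaffold, which held 21 tested peaks. For the 4529 tested peaks on assembled chromosomes the median GC content was 61.5%. It was 40.3%, with quartiles of 35.6% and 46.8%, in the 43 higher peaks there, and 61.4% in the 935 lower ones. CG dinucleotides numbered 0.959 per 100 bases in the higher peaks (median) and 7.13 in the lower ones. The 44 peaks past 2-fold higher took 0.298% of absent and 0.168% of matrix fragments, a difference in direction that follows from how they were picked.

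Among peaks with at least 50 expected absent fragments, the 2 highest and the 2 lowest are shown by 180 bases each. Peaks with fewer expected fragments reached higher ratios, up to 3.95. Each stretch is the one nearest the peak's middle outside annotated untranslated regions, with CG dinucleotides in capitals, on the plus strand of mm10 (GRCm38).
chr9:3002060-3002239, higher in absent: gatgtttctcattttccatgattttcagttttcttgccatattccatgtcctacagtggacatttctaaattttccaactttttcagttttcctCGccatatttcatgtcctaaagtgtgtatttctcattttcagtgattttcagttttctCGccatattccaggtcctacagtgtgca
chr9:35305315-35305494, higher in absent: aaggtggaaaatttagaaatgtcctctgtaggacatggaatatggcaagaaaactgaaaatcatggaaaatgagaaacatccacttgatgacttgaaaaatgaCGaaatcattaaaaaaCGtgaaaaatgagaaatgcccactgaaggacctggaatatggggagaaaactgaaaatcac
chr8:70760975-70761154, lower in absent: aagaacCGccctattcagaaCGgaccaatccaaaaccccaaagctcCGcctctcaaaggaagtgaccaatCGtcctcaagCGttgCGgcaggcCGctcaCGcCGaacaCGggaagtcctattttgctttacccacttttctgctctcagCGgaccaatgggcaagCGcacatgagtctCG
chr7:45016364-45016543, lower in absent: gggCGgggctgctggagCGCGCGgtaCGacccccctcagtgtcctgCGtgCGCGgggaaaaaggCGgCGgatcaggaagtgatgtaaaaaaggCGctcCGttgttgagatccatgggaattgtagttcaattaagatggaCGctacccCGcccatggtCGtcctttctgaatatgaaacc
The first of these lies in the peak chr9:3001691-3002608, within 1 kb of the starts of the predicted genes Gm10722 and Gm11168, with 152 absent and 642 matrix fragments and a ratio of 2.92 (2.43 to 3.48). That peak matched itself best when shifted by 234 bases, at 92.4% identity over lags of 50 to 400, which is the unit length of the mouse major satellite repeat, which lies beside centromeres. The second lies in chr9:35304950-35305860, with no TSS within 1 kb, 486 and 2076 fragments and a ratio of 2.88 (2.61 to 3.18), where the same shift was the best, at 40.6%. The third highest peak, chr14:19418420-19419254 beside Gm21738, had a ratio of 2.78 (2.28 to 3.36) and a best shift of 351 bases at 69.0%, and its expected number was 53.8, or 47.5 from matrix fragments alone, under the limit of 50 for naming. Reads of repeats can be placed at any of several copies, so the position of such fragments is uncertain. The third window lies in chr8:70760614-70761515 at the promoter of Mpv17l2, with 22 and 686 fragments and a ratio of 0.395 (0.246 to 0.603). The fourth lies in chr7:45015857-45016832 near the start of Scaf1, at 0.438 (0.289 to 0.637), and the third lowest peak, chr2:92374881-92375778 at Pex16, a gene of peroxisome assembly, was also at 0.438 (0.284 to 0.647). The 2 windows lower in absent hold 13 and 15 CG dinucleotides, and the 2 higher ones hold 2 each.

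Many absent fragments had an exact copy under another barcode, and the copies followed the second segment. Of absent fragments, 18.9% had the same chromosome, start and end as a fragment of another barcode, against 19.4% of matrix fragments. Among absent fragments found under exactly 2 barcodes, 51.8% (51.7 to 51.9) shared the second segment with their copy, where the fragment numbers alone give 2.33%. Only 2.13% (2.10 to 2.16) shared the first segment, where the numbers give 1.91%. In matrix barcodes these shares were 50.8% and 2.20%. For 7.07% of absent fragments the copy lay in a matrix barcode of the same second segment. Under the near-empty TCCGGCCT, 22.8% (20.4 to 25.4) of such copies shared the second and 19.1% (16.8 to 21.5) the first segment. The part of these copies in the results above is given by leaving them out: the peak share was then 11.6% in absent and 17.4% in matrix barcodes, and the share under 150 bp 51.7% and 46.1%.

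The 2 absent barcodes with over 120000 fragments were not alike. The barcode ccgattccCAACCGCT had 186283 fragments, where the other 49 barcodes of its second segment ran from 11453 to 105517. Of its fragments 13.5% lay in peaks, below every matrix barcode, its TSS enrichment was 6.36 (5.98 to 6.77), and 58.2% of its fragments were under 150 bp. The barcode cttgcgccACTTAACC had 125142 fragments, where the other 49 of its second segment ran from 26790 to 115587. Its 20.9% in peaks lay inside the matrix range, its enrichment was 9.27 (8.68 to 9.91), and 56.9% of its fragments were under 150 bp. Both were the deepest barcode of their second segment, and those with the same first segment were far shallower, with medians of 15538 and 19976. Both segments were deep as a whole, with 12 and 10 further absent barcodes, whose 11.1% and 12.9% in peaks stood below the 19.9% and 18.7% of their matrix barcodes.

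Their promoter lists rested on few fragments. The first had 4 neuron, 2 muscle, 5 fibroblast, 6 epithelial and 5 glial fragments among 14698 promoter fragments, or 272 (74.2 to 697) neuron and 136 (16.5 to 492) muscle fragments per 1000000. The second had 6, 1, 11, 1 and 2 among 15466, or 388 (142 to 844) neuron and 711 (355 to 1273) fibroblast fragments per 1000000. Against the matrix barcodes of the same second segment, the interval of every list in both barcodes included 1, for example 0.796 (0.209 to 2.16) for neuron in the first and 1.37 (0.670 to 2.54) for fibroblast in the second, and differences within those intervals were not detectable. The erythroid list had 0 fragments in both, with exact Poisson upper limits of 251 and 239 per 1000000 promoter fragments.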

How the data were processed

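The deposited files were the authors' ATAC fragment list, made per the file headers with cellranger-arc 2.0.1 on an mm10 reference (each fragment with its barcode and its count of read pairs), and a deposited matrix of raw counts, not normalized (RNA molecules per gene and transposase cuts per peak). The labels also name Seurat 4.0. The rule by which barcodes entered the matrix is not given in the sources used here.

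Barcodes were matched by name. Fragments were counted against the 91223 deposited peaks and against 1 kb on either side of the principal TSS of 32235 of 32285 genes (GENCODE release M21). Ratios have conditional exact, shares Clopper-Pearson and rates exact Poisson 95% intervals. With 1 library no model was fitted. Promoters and peaks needed 25 expected absent fragments to be counted and 50 to be named: the 4 promoters and 3 peaks at each end. From each main list the 4 genes with most fragments were named, and 1 from each other list, of which some are not reported here. Barcodes, lists and tests were chosen with earlier results of these data known. Second segments were grouped by RNA or kept by their number of matrix barcodes, expected numbers were taken from matrix fragments alone, ATAAGGAG or TCCGGCCT was left out of standardised or equally weighted ratios, the peak and promoter counts were rescaled and copied fragments were left out after the data were seen. Python 3.11.15, scipy 1.17.1, pandas 2.3.3 and numpy 2.4.6 were used, and the counting was tested on simulated data.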

Additional observations from a re-analysis of the deposited data

How the results depend on the processing

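No paired analysis was possible because there was 1 library of each kind, and for the same reason no replicate could be left out. The 27 results were recomputed in 226 alternative values, of which 170 stayed inside the first value's counting interval or within 1.5 times its count, 45 moved and 11 changed direction from a value whose interval excluded no difference. Of the 45, 3 also crossed 1, all of the standardised fibroblast ratio, whose first interval included 1. Where no cause is named, the cause was not tested. The intervals cover counting error only, and the spread between animals was not measured.

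Median depth was 5569 without TCCGGCCT and 6104 in read pairs. Among the 286 barcodes shallower than any matrix barcode, 10.5% lay in the 3 first and 46.5% in the 3 second segments with most. The share under 150 bp was 5.34 percentage points higher in absent barcodes and stayed higher throughout: 5.56 with all 507 barcodes, 6.20 against the 25% of matrix barcodes with fewest fragments, 5.39 without AACCTGCG, 4.99 with equal weight per barcode, 6.10 in read pairs, 5.26 on autosomes, 3.58 at a limit of 120 bp and 5.55 without copied fragments. The peak share fell by 5.84 points and remained lower throughout: -5.66 with all 507, -5.13 against those shallow 25%, -5.88 without AACCTGCG, -3.40 with equal weight, -6.64 in read pairs and -5.78 without copied fragments.

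With equal weight per barcode, where the shallow barcodes count most, the neuron ratio turned to 1.13, the muscle ratio was 1.04 and the epithelial ratio 0.759. As a share of all fragments the muscle and fibroblast ratios turned to 0.930 and 0.850, and neuron, epithelial and glial were 0.549, 0.658 and 0.639. The standardised fibroblast ratio of 0.878 was 1.30 over first segments, 1.13 over second segments with at least 10 matrix barcodes and 1.16 without ATAAGGAG, and the epithelial interval then included 1 (0.920 to 1.47 and 0.962 to 1.52), as did the neuron interval without ATAAGGAG (0.749 to 1.02). With all 507 barcodes the standardised neuron (0.751 to 1.004) and epithelial (0.997 to 1.53) intervals included 1. The plain neuron interval included 1 with 500 bp windows (0.710 to 1.01) and the plain fibroblast interval with 2 kb windows (0.986 to 1.28). As a share of all fragments the endothelial (0.844), macrophage (0.934), erythroid (0.937), cartilage and bone (0.894) and pituitary (0.893) lists also turned below 1, and the endothelial (0.839) and housekeeping (1.14) lists turned with equal weight, where macrophage was 3.32, cartilage and bone 1.74, erythroid 1.01 and pituitary 1.09. With equal weight but without TCCGGCCT, neuron was 0.886, fibroblast 1.62, macrophage 1.24 and endothelial 0.931. The erythroid interval also included 1 with all 507 barcodes (0.977 to 1.72), with 500 bp windows (0.812 to 1.81) and without copied fragments (0.996 to 1.90), the pituitary interval in read pairs (0.947 to 1.61), with both other windows (0.836 to 1.76 and 0.986 to 1.49) and without AACCTGCG (0.981 to 1.74), the endothelial interval with 500 bp windows (0.992 to 1.60), and the macrophage interval without its gene with most fragments (0.980 to 1.74).

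Promoters past the fold and higher numbered 79 against those shallow 25%, 5 at 50 expected fragments, 6 at 2-fold and 5 as a share of all fragments, and lower ones 125, 52 and 7169 under the last 3. Peaks past the fold and higher numbered 26 at 50 expected fragments and 41 as a share of all fragments, and lower ones 188, 107 at 2-fold and 6051 as a share of all fragments. Of absent fragments 18.7% had a copy with all 507 barcodes, and 41.2% shared a chromosome and start or end with another barcode's fragment.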
